A study of Saccharomyces cerevisiae with 20 samples.

Results

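The SUT features are intervals of the yeast genome annotated as stable unannotated transcripts, and 641 of them are described here, each with its level in 5 overexpression strains and with the ORF beside or opposite it. A feature was included when its name began with SUT and a digit and its median over the 20 libraries was at least 1 CPM, where CPM is the number of counts scaled to 1000000 counts of features other than ORFs. Of the 12131 features counted, 6575 were ORFs and 5556 were not, and 992 of the latter were SUT features. The 641 members belonged to 510 SUT numbers, of which 102 had several members and one had as many as 8, so that SUT1912.1 and SUT1912.4, for example, are separate intervals of a single number. The 351 SUT features left out all had a median of 0 CPM, and 172 SUT features had no count in any library. The member with the lowest median was SUT2704.2 at 1.43 CPM, and SUT1688.1 at 0 lay just outside.

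The study asked how increased dosage of 5 genes that flatten the fluffy colonies of strain F45 alters transcription. All 5 strains were F45, a *MAT*a strain with *ho* replaced by *hphMX6*, *SPS2* fused to EGFP and marked with *natMX4*, and an unmapped serine auxotrophy, carrying a low-copy centromeric MoBY plasmid with *TOS8*, *SFL1*, *HEK2*, *SAN1*, or *ROF1* (*YHR177W*) under its native promoter. *TOS8* and *SFL1* encode transcription factors, *HEK2* an RNA-binding protein, *SAN1* a nuclear ubiquitin ligase, and *ROF1* a DNA-binding regulator. Whole colonies were harvested after 4 d at 30° on YPD with 2% glucose and G418, several colonies were pooled per sample, and 4 samples per strain each gave a stranded mRNA library. No vector control is among these libraries, so each strain was compared with the mean of the other 4, and these comparisons share libraries. Whether the 4 samples of a strain came from separate transformants is not given, so the p-values measure the spread between these samples only.

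Stable unannotated transcripts are RNA polymerase II transcripts without a known protein product that can be detected in cells with an intact nuclear exosome, in contrast to cryptic unstable transcripts, which the exosome removes soon after synthesis. Many begin in the nucleosome-depleted regions at either end of genes, so they often run away from the promoter of a neighbouring gene or across a gene on its opposite strand. Nrd1 and Nab3, which terminate short noncoding transcripts and pass them to the exosome, bind GUAA or GUAG and UCUU in the nascent RNA, written in DNA letters as GTAA, GTAG, and TCTT.

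Total counts were 6027147 to 35027485 per library, of which the members received 6226 to 35433. A single count was worth 3.04 to 15.996 CPM, and a count of 0 allowed up to 9.12 CPM (*SFL1* replicate 3) to 48.0 CPM (*HEK2* replicate 3), taken as 3 counts. The reads carry no molecular identifiers, so this limit covers counting error only. In each library 8 to 135 members had no count, the median member had a median of 6 counts, 283 members (44.1%) had a median below 5, and 39 had at least 100. Each plasmid gene was higher in its own strain than in each of the other 16 libraries, with log2 differences of 1.29 to 2.19.

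The SUT features on which the results below turn are shown on their own strand, from the annotated start, with GTAA, GTAG, and TCTT in capitals. Those under 100 nucleotides (SUT2433.1, SUT1869.1, and SUT1869.2) are given whole, and the others by their first 100 bases. The coordinates are those of the files (S288c, R64-1-1), and the letters were read from the RefSeq R64 reference, so differences of F45 from S288c are not shown. The following lie opposite or beside the cell wall mannoprotein genes *HPF1* (the SUT2486 features) and *DAN1*, and they include members that were higher in the *SAN1* and *ROF1* strains than in the other strains.
SUT2486.1, chrXV:28713-28812, plus strand, opposite *HPF1*: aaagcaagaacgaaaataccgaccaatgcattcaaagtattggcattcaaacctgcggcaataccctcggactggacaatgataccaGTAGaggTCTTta
SUT2486.2, chrXV:30937-31036, plus strand, opposite *HPF1*: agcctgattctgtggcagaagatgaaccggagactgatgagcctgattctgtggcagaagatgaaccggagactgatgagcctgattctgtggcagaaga
SUT1867.2, chrX:709020-709119, plus strand, opposite *DAN1*: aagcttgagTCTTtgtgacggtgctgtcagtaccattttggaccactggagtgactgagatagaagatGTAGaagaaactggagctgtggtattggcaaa
SUT1869.1, chrX:709476-709556, plus strand, opposite *DAN1*: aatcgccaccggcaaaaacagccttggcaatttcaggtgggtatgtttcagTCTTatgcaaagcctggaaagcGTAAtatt
SUT1869.2, chrX:710172-710244, plus strand, divergent from *DAN1*: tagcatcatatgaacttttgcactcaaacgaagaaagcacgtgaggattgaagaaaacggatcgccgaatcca

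The next are antisense members of other ORFs, the member nearest to *SFL1*, and those opposite the amino acid permease gene *GAP1*, which were at or near 0 in the *TOS8* strain.
SUT1554.1, chrVII:111747-111846, plus strand, opposite *YGL204C*: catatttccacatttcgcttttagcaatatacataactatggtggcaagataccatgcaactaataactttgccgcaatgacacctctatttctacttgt
SUT1576.1, chrVII:416299-416398, plus strand, opposite *RNA15*: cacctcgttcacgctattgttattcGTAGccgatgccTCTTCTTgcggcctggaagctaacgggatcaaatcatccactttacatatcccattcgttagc
SUT1912.1, chrXI:515205-515304, minus strand, opposite *GAP1*: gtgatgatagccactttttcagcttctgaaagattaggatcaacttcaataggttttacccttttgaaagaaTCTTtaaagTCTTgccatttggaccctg
SUT1912.4, chrXI:516181-516280, minus strand, opposite *GAP1*: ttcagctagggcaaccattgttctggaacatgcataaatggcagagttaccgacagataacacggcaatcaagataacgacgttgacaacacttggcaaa
SUT2433.1, chrXV:586734-586822, minus strand, beside *SFL1*: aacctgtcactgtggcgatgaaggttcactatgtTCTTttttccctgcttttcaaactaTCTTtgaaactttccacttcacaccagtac

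Counted with overlapping matches, within the first 100 bases 52.4% of the 496 members long enough held GTAA or GTAG and 50.6% held TCTT, both counted on the transcript's own strand, against 40.4% and 35.6% of the tested ORFs. Over their whole length the members held a median of 7.67 GTAA or GTAG and 7.20 TCTT per kb, compared with 5.24 and 4.54 per kb in ORFs. The other noncoding sets of the table were near the members, with 7.79 and 6.73 per kb in MUT features, 8.50 and 9.41 in ST features, and 8.02 and 7.48 in features named by chromosome and strand. TATAAA lay on either strand in the 200 bases before the start of 27.0% of members (173) and 36.3% of ORFs. The median GC content was 38.2% for members and 39.7% for ORFs. These shares describe letters in the reference, not binding.

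The median member was 281 nucleotides long, with a range of 51 to 2929, and members lay on all 16 chromosomes with 346 on the plus strand and 295 on the minus strand. By position to the nearest ORF, 398 members (62.1%) overlapped an ORF on the opposite strand, and 238 of these lay wholly inside it. A further 80 pointed toward an ORF on the opposite strand (convergent), 51 pointed away from one (divergent), 54 lay downstream and 53 upstream of an ORF on the same strand, and 5 overlapped one on the same strand. The starts of the divergent members were a median of 460 nucleotides from the start codon of the ORF. The median read density was 167.4 CPM per kb. It was 140 for antisense members, 310 for convergent, 137 for divergent, 221 for downstream, and 293 for upstream members.

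Members were scarce beside the ORFs around them. The median member had 4.95% of the read density of its nearest ORF, counting reads per base in the same libraries, 157 members were under 1%, and 71 were above their ORF. Downstream members on the same strand stood at a median of 23.0% of the ORF, compared with 4.28% for antisense and 2.89% for divergent members. The median lengths were 114.5 nucleotides for downstream, 369 for antisense, and 137 for divergent members. Density divides counts by the annotated length, and the part of length in these values was not tested. The ORF intervals are coding spans, so reads from the untranslated ends of an ORF can fall into a SUT feature on the same strand, and the part of such reads in these values was not tested. Of the antisense members 112 were under 1% of their ORF. The part of ORF reads assigned to the wrong strand in antisense counts was not tested either. By density the highest members were SUT1869.2 at 17938 CPM per kb, SUT1237.1 at 8689.8, SUT2486.2 at 7459, SUT2250.1 at 6045, and SUT1869.1 at 5962. Of these, SUT1869.2 and SUT1869.1 are intervals of only 73 and 81 nucleotides. SUT1237.1 began 4 nucleotides downstream of the ribosomal protein gene *RPL13A*, and SUT2250.1 lay 904 nucleotides upstream of *FAR3*, a gene of pheromone-induced arrest. The lowest were SUT1100.1 (4.49, opposite *GID12*), SUT1565.1 (5.99, downstream of *YGL159W*), and SUT1285.1 (6.38, divergent from the glucanase gene *EXG2*).

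**Figure D1:**
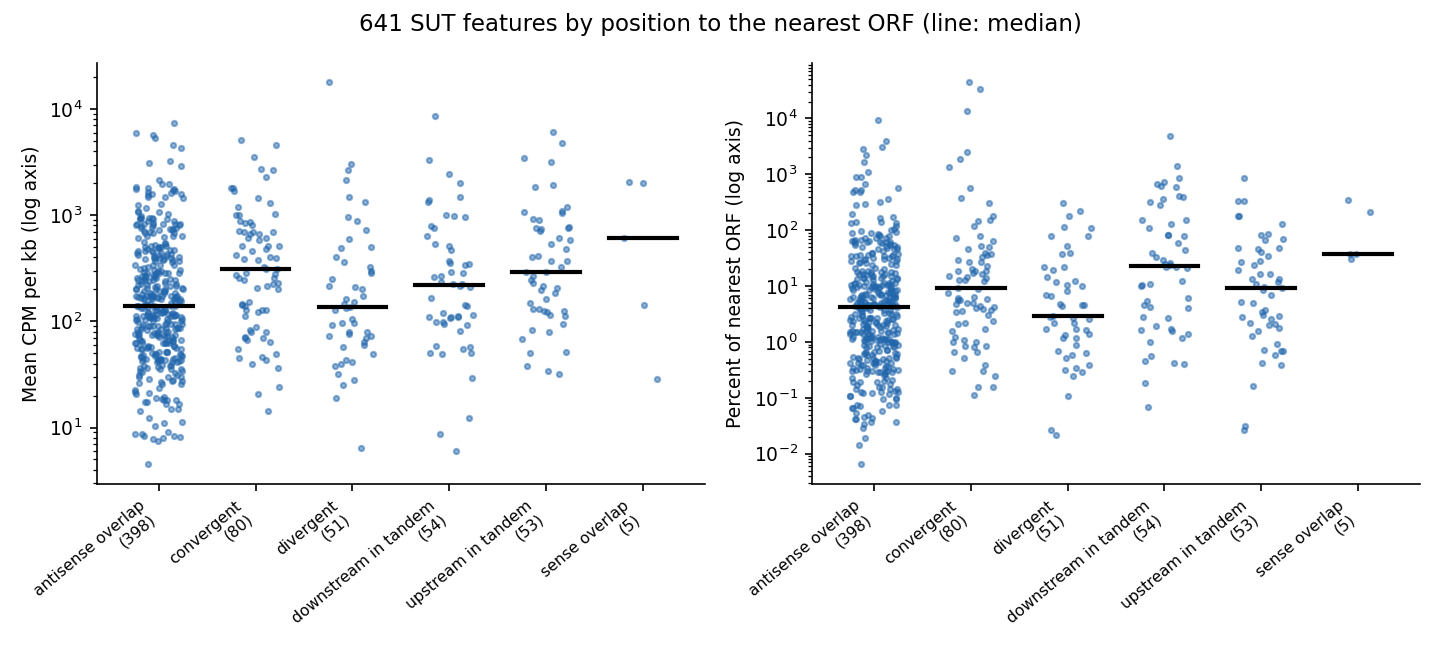
Level of the 641 SUT features by their position to the nearest ORF, as mean CPM per kb over 20 libraries (left, log axis) and as a percentage of the read density of that ORF (right, log axis), with 1 point per feature and a line at the median. Antisense members stand at a median of 140 CPM per kb and 4.28% of their ORF, and downstream members at 221 CPM per kb and 23.0%. The positions differ in median length, and the part of length in these values was not tested.

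A small number of members carried most of the signal. Of the summed member CPM, 38 members held 50% and the top 10 held 24.0%. The members took 10.2% to 10.6% of the counts outside ORFs in the *TOS8* libraries, 10.04% to 10.5% in the *SFL1* libraries, and 10.04% to 10.4% in the *HEK2* libraries. They took 11.1% to 11.5% in the *SAN1* libraries and 11.3% to 11.7% in the *ROF1* libraries, so the 8 libraries of these strains lay above the other 12. Of all counts the share was 0.116% ± 0.00572 (SD, n = 4) in *SAN1* and 0.115% ± 0.000880 in *ROF1*, and 0.105% ± 0.00128 in *SFL1*, 0.103% ± 0.00157 in *HEK2*, and 0.0991% ± 0.00286 in *TOS8*. The members of SUT2486 and SUT1869 alone took 0.922% to 1.33% of the counts outside ORFs in the *SAN1* and *ROF1* libraries and 0.311% to 0.526% in the others. Without these SUT numbers, which were chosen after their values were seen, the shares were 10.01% to 10.5% and 9.67% to 10.1%. Of the *SAN1* and *ROF1* libraries only *SAN1* replicate 3 (10.01%) lay below the highest other library, *TOS8* replicate 2 (10.09%).

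**Figure D2:**
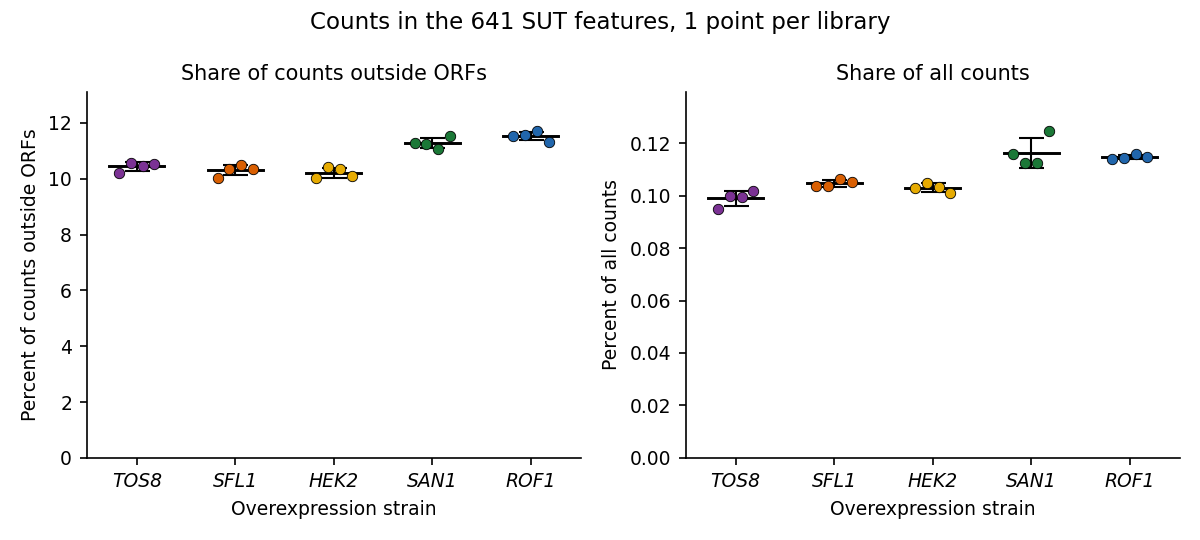
Percentage of the counts outside ORFs (left) and of all counts (right) that fell in the 641 SUT features, with 1 point per library, a line at the strain mean, and bars of 1 SD (n = 4). The *SAN1* and *ROF1* libraries lie at 11.1% or more of the counts outside ORFs, and the libraries of the other strains at 10.6% or less.

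At a false discovery rate below 0.01 in edgeR's quasi-likelihood test, fitted to all 4007 tested features outside the ORFs, 101 of the 641 members (15.8%) differed among the 5 strains, in 91 SUT numbers. This share is that of the background of all 4007 features, members included, where percent called was 15.8, and among ORFs it was 58.5%. Without adjustment 217 members (33.9%) had a p-value below 0.05, against 33.0% of the background. The share called rose with depth, from 11 of 306 members with a median of up to 5 counts (3.59%) to 22 members between 5 and 20 (13.3%), 46 of 132 between 20 and 100 (34.8%), and 22 of 38 above 100 (57.9%). By position it was 15.3% of antisense members (61), 17.5% of convergent (14), 26.4% of upstream (14), 11.1% of downstream (6), and 9.80% of divergent members (5). The other noncoding sets had 12.7% called for MUT features, 14.0% for ST features, and 17.9% for features named by chromosome and strand. Their depths differ, with median counts of 4.5, 10, and 16 in that order, against 6 for members. The biological coefficient of variation between replicates had a median of 0.108 for members above a mean of 100 counts and 0.0698 for ORFs above 100 counts. That bin has no upper limit, so the depths of members and ORFs in it can differ. Between 20 and 100 counts the medians were 0.108 for members (n = 141) and 0.0966 for ORFs (n = 320).

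**Figure D3:**
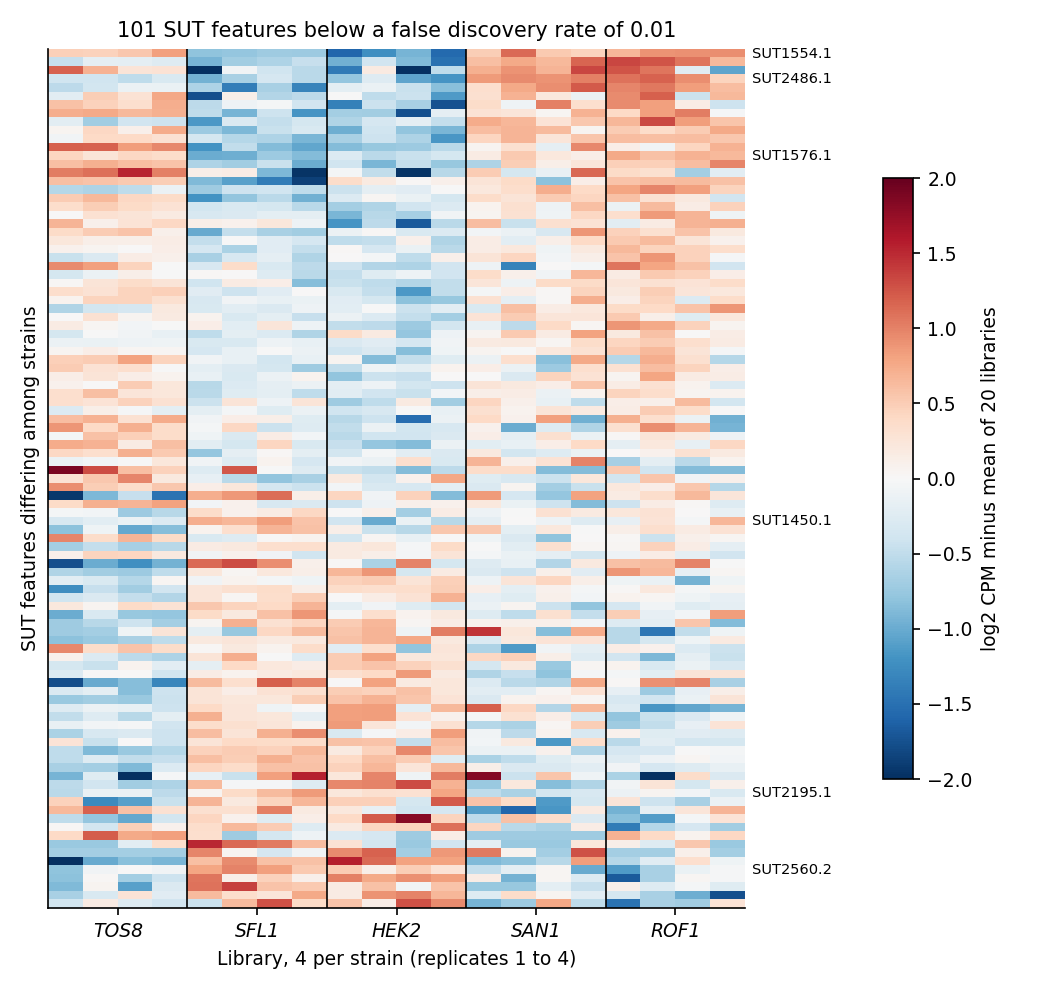
The 101 SUT features that differed among strains (rows, ordered by the difference of the *SFL1* and *HEK2* strains from the *SAN1* and *ROF1* strains) in the 20 libraries (columns), as log2 CPM minus the mean of the 20 libraries, with colours that stop at -2 and 2. SUT1554.1 and SUT2486.1 at the top are low in the *SFL1* and *HEK2* libraries and SUT2560.2 near the bottom is high in them, and the *TOS8* libraries follow neither pair throughout.

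The *SFL1* and *HEK2* strains differed from the *SAN1* and *ROF1* strains in 66 members (10.3%, background percent called 7.94), of which 24 were higher in *SFL1* and *HEK2* and 42 were lower. The background was 4.12% higher and 3.82% lower. The 8 and 8 libraries did not overlap for 5 higher and 13 lower members, against 1.9% of the background. Antisense members made up 46 of the 66, and 398 of all 641. Several of the lower members lay at *HPF1*, which encodes a heavily glycosylated cell wall mannoprotein, and at *DAN1*, which encodes an anaerobically induced cell wall mannoprotein.

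SUT2486.1 (chromosome XV, 28713 to 29311, plus strand, 599 nucleotides) lay opposite the downstream end of *HPF1* (*YOL155C*, 28703 to 31606). It was at 1797, 1807, 1674, and 1922 CPM in the *TOS8* libraries, 1231, 1515, 1873, and 1631.0 in the *SFL1* libraries, and 1380.1, 1989.5, 1136, and 1045 in the *HEK2* libraries. In the *SAN1* libraries it was at 4315, 4587, 4426, and 4777 CPM and in the *ROF1* libraries at 5046, 5371, 4563, and 3256. All 8 *SAN1* and *ROF1* libraries lay above the other 12. The log2 difference of *SFL1* and *HEK2* from *SAN1* and *ROF1* was -1.61 (SE 0.09, edgeR adjusted p = 1.83e-22). SUT2486.2, opposite the part nearer its start (30937 to 31281), was at 1369.6 ± 184 CPM for *SFL1* and 1176 ± 372 for *HEK2*, and at 3824 ± 709.7 for *SAN1* and 4696 ± 931 for *ROF1* (SD, n = 4), a log2 difference of -1.74 (SE 0.10, edgeR adjusted p = 1.04e-22). The *TOS8* strain, at 1801 ± 154 CPM, was on the side of *SFL1* and *HEK2*.

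The *HPF1* ORF itself went the other way between these pairs of strains. On the scale of CPM of ORF counts it was at 885 ± 84.0 for *SFL1* and 1191 ± 182 for *HEK2*, against 343 ± 100.1 for *SAN1*, 353 ± 149 for *ROF1*, and 283 ± 31.2 for *TOS8*, with a log2 difference of 1.56 (SE 0.15, edgeR adjusted p = 1.94e-07). In the *TOS8* strain both the ORF and its antisense members were at the lower of their levels. Windows of 51 bases that occur more than once in the reference cover 55.6% of SUT2486.1 and 14.6% of SUT2486.2. Part of these counts could come from copies elsewhere. The printed start of SUT2486.2 repeats a short unit, so copies can also lie within a feature, and where they lie was not determined.

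Opposite and beside *DAN1* (*YJR150C*, chromosome X, 708811 to 709707), 3 of 4 members showed the same order of strains. SUT1867.2 (709020 to 709412) was at 83.7, 44.6, 82.1, and 46.9 CPM in the *SFL1* libraries, 116, 122, 96.0, and 70.1 in the *HEK2* libraries, and 90.5, 102, 124, and 122 in the *TOS8* libraries. It was at 173, 235, 265, and 329.8 CPM in the *SAN1* libraries and 275, 290.2, 248, and 212 in the *ROF1* libraries. The 2 sets of libraries did not overlap, and the log2 difference was -1.59 (SE 0.17, edgeR adjusted p = 3.09e-11). SUT1869.1 averaged 299.6 to 329.9 CPM in the *SFL1*, *HEK2*, and *TOS8* strains, 651 ± 90.5 in the *SAN1* strain, and 809 ± 207 in the *ROF1* strain (log2 difference -1.27, SE 0.11, edgeR adjusted p = 4.88e-14). SUT1869.2 begins 464 nucleotides beyond the start of *DAN1* and runs away from it. It was at 858 ± 83.2 and 1059 ± 126 CPM in the *SFL1* and *HEK2* strains and 1649.5 ± 264 and 2083 ± 306 in the *SAN1* and *ROF1* strains (log2 difference -0.95, SE 0.09, edgeR adjusted p = 3.99e-13).

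SUT1867.1, which lies at the downstream end of *DAN1* with a mean of 13.8 CPM, did not pass the test for any difference among strains (adjusted p = 0.539). The *DAN1* ORF was at 152 ± 21.2 CPM of ORF counts in the *SFL1* strain, 92.8 ± 14.0 in *HEK2*, 26.2 ± 16.9 in *SAN1*, 33.3 ± 23.9 in *ROF1*, and 12.9 ± 5.24 in *TOS8*. No window of 51 bases in SUT1867.2 or the SUT1869 features occurs more than once in the reference. These members of SUT2486, SUT1867, and SUT1869 fall outside the rule for named features except SUT2486.2, SUT1869.1, and SUT1869.2, and the others were chosen after their values were seen.

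**Figure D4:**
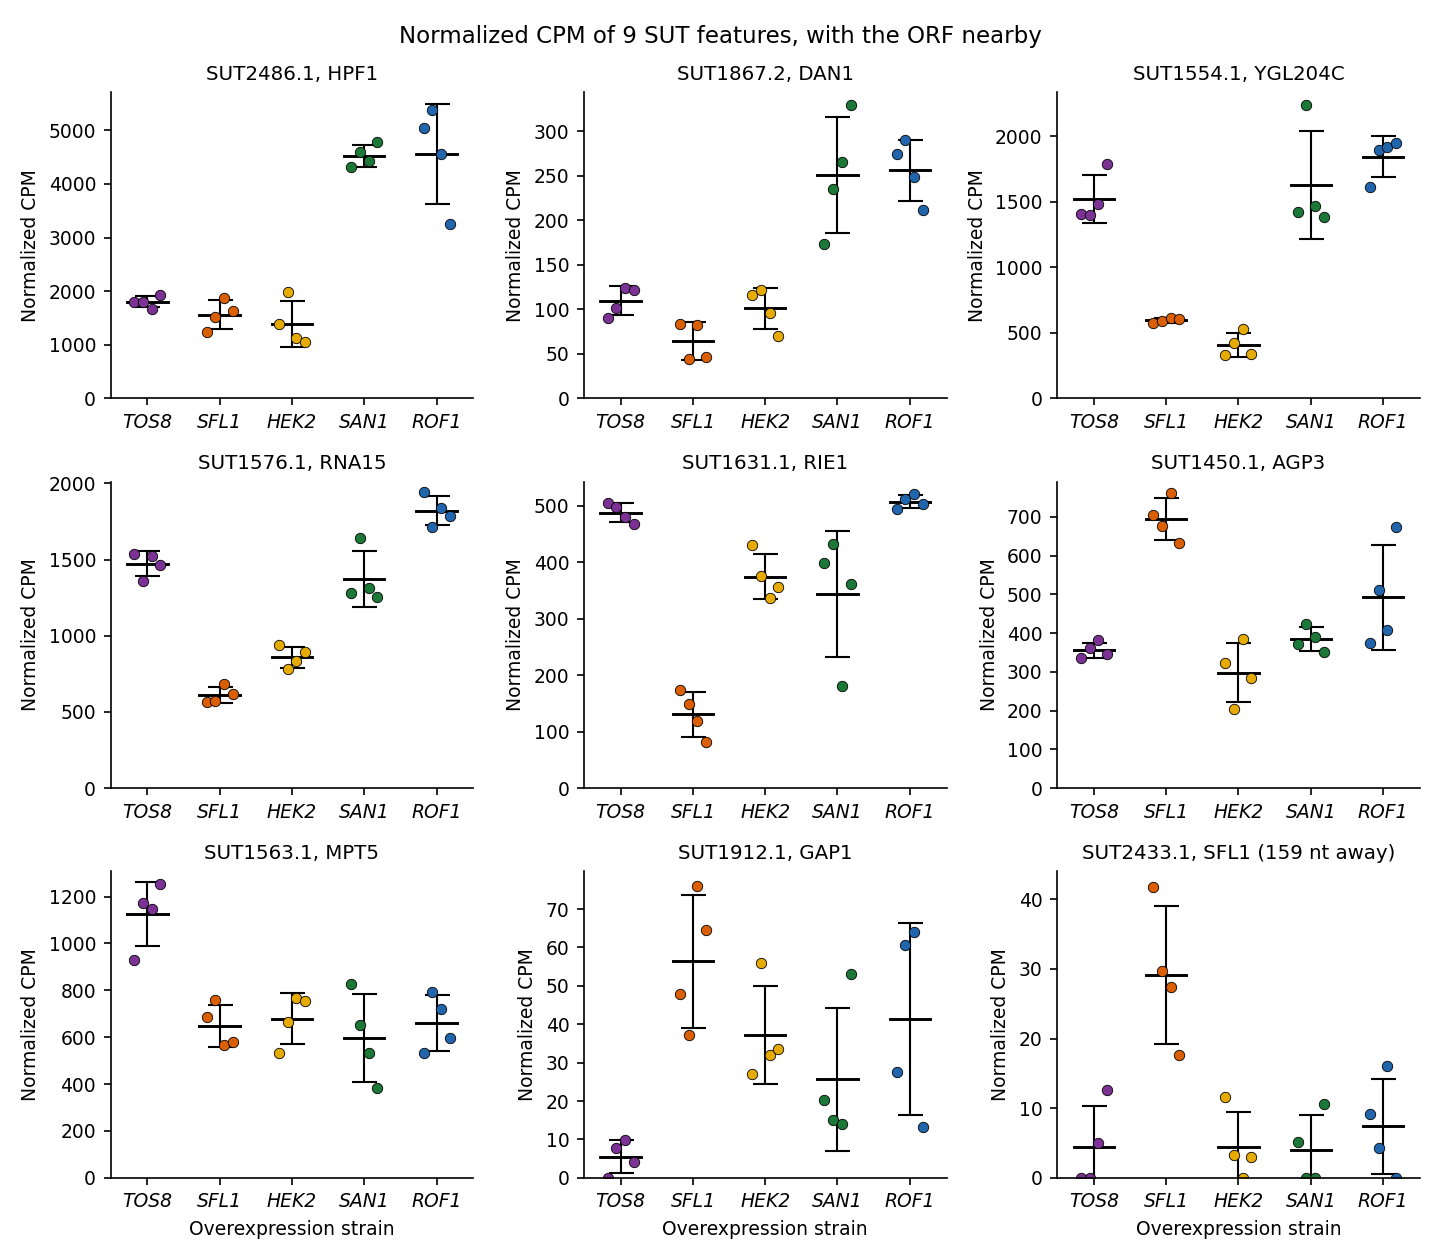
Normalized CPM of 9 SUT features in the 20 libraries, titled with the feature and the ORF beside or opposite it, with 1 point per library, a line at the strain mean, and bars of 1 SD (n = 4). SUT2486.1 and SUT1867.2 are high in the *SAN1* and *ROF1* strains, SUT1554.1 is low in the *SFL1* and *HEK2* strains, and SUT1631.1 is low in the *SFL1* strain.

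The largest difference between the pairs of strains by the rule for named features was at SUT1554.1 (chromosome VII, 111747 to 112155), which overlaps the uncharacterized ORF *YGL204C* on the opposite strand by 259 nucleotides. It was at 574, 587, 614, and 604 CPM in the *SFL1* libraries and 329.5, 424, 528, and 338 in the *HEK2* libraries, and at 1409, 1395, 1481, and 1787 in the *TOS8* libraries. It was at 1423, 2241, 1466, and 1383 CPM in the *SAN1* libraries and 1612, 1897, 1921, and 1946 in the *ROF1* libraries. The *SFL1* and *HEK2* libraries lay below all others without overlap. The log2 difference between the pairs was -1.86 (SE 0.10, edgeR adjusted p = 1.52e-24), and that of *HEK2* from the other 4 strains was -1.75 (SE 0.12, edgeR adjusted p = 3.6e-18). *YGL204C* differed by 0.20 (SE 0.06, edgeR adjusted p = 0.00845) in the opposite direction.

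SUT1576.1 (chromosome VII, 416299 to 417035) lies wholly within *RNA15*, a subunit of the factor that cleaves and polyadenylates pre-mRNA, on the other strand. It was at 568, 572, 684, and 616 CPM in the *SFL1* libraries, 938, 779, 832, and 890.0 in the *HEK2* libraries, and 1539, 1359.9, 1526, and 1467 in the *TOS8* libraries. It was at 1280.2, 1643, 1312, and 1255 CPM in the *SAN1* libraries and 1941, 1715, 1841, and 1787 in the *ROF1* libraries. The *SFL1* libraries were the lowest and the *ROF1* libraries the highest, neither overlapping any other strain. The *SFL1* strain differed from the other 4 by -1.11 (SE 0.10, edgeR adjusted p = 1.21e-13) and the *ROF1* strain by 0.84 (SE 0.09, edgeR adjusted p = 2.96e-11) on the log2 scale. The *RNA15* ORF differed between the pairs of strains by 0.01 (SE 0.04, edgeR adjusted p = 0.919).

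Among members higher in *SFL1* and *HEK2*, the rule named SUT2560.2, opposite *PRT1*, a subunit of translation initiation factor eIF3. It was at 102, 119, 103, and 82.1 CPM in the *SFL1* libraries and 81.4, 59.2, 80.0, and 67.1 in the *HEK2* libraries, and at 35.7, 45.4, 55.9, and 21.3 in the *SAN1* libraries and 18.3, 30.3, 48.0, and 52.9 in the *ROF1* libraries. The pairs did not overlap, the log2 difference was 1.17 (edgeR adjusted p = 0.000419), and that of the *PRT1* ORF was 0.16 (edgeR adjusted p = 0.00785). The next 2 have more counts and were chosen after their values were seen. SUT2195.1, opposite the stress-induced glycoprotein gene *DDR48*, averaged 2577 ± 593 and 2434 ± 471 CPM in the *SFL1* and *HEK2* strains and 1314 ± 127 and 1685 ± 174 in the *SAN1* and *ROF1* strains (log2 difference 0.76, SE 0.09, edgeR adjusted p = 3.87e-09), and *DDR48* differed by -1.69 (edgeR adjusted p = 1.01e-10). Repeated windows cover 42.9% of SUT2195.1. Lower in *SFL1* and *HEK2* was SUT2264.2, inside the phosphatidate phosphatase gene *PAH1* on the other strand, which averaged 1050.2 ± 163 and 989 ± 203 CPM against 2237 ± 292 and 2415 ± 67.1, a log2 difference of -1.20 (edgeR adjusted p = 3.04e-17). The *PAH1* ORF differed by 0.16 (edgeR adjusted p = 0.00668).

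The *TOS8* strain differed from the mean of the other 4 in 56 members (8.74%, background percent called 10), 31 higher (background 5.49%) and 25 lower (background 4.54%). The libraries did not overlap for 3 higher and 7 lower members (background 3.02%). The named higher member with the most counts was SUT1563.1, which ends 36 nucleotides before *MPT5*, a PUF-family RNA-binding protein gene on the same strand. The part of reads from the untranslated start of *MPT5* in these counts was not tested. SUT1563.1 was at 931, 1172, 1149, and 1252 CPM in the *TOS8* libraries. It was at 687, 758, 569, and 581 CPM in the *SFL1*, 531, 664, 768, and 756 in the *HEK2*, 826, 651, 531, and 383 in the *SAN1*, and 531, 793, 720.4, and 596 in the *ROF1* libraries. All 4 *TOS8* libraries lay above the other 16, with a log2 difference of 0.81 (SE 0.11, edgeR adjusted p = 2.11e-08), and the *MPT5* ORF differed by 0.17 (adjusted p = 0.0431). SUT2317.1, convergent with the chitin synthase gene *CHS1*, averaged 281 ± 60.0 CPM in the *TOS8* strain and 148 to 173 in the others (log2 difference 0.71, SE 0.15, edgeR adjusted p = 0.00022). The *CHS1* ORF differed by 0.57 (edgeR adjusted p = 2.21e-06). SUT2501.1, divergent from the thiamine biosynthesis gene *THI20*, averaged 482 ± 57.6 CPM against 281 to 375 (log2 difference 0.62, SE 0.12, edgeR adjusted p = 6.42e-05). The *THI20* ORF differed by -0.17 (edgeR adjusted p = 0.00678).

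The lower members of the *TOS8* strain were led by SUT1912, a set of 4 intervals on the minus strand across *GAP1*, the general amino acid permease gene. SUT1912.1 was at 0, 7.84, 9.91, and 4.22 CPM in the *TOS8* libraries, which is 0, 2, 2, and 1 counts. It was at 47.8, 37.1, 76.0, and 64.5 CPM in the *SFL1*, 27.1, 55.9, 32.0, and 33.5 in the *HEK2*, 20.4, 15.1, 14.0, and 53.2 in the *SAN1*, and 27.5, 60.6, 64.0, and 13.2 in the *ROF1* libraries. The *TOS8* libraries were below all others. The fitted log2 difference was -2.52 (SE 0.51, edgeR adjusted p = 0.000134), and this fold change rests on few counts, with 0 counts in *TOS8* replicate 1 allowing up to 38.8 CPM. SUT1912.4 (0, 7.84, 4.95, and 8.43 CPM in the *TOS8* libraries, and strain means of 22.2 to 60.9 in the others) differed by -2.31 (SE 0.51, edgeR adjusted p = 0.000576) and SUT1912.2 by -2.03 (SE 0.46, edgeR adjusted p = 0.000739), while SUT1912.3 was not called in the test over all strains (adjusted p = 0.0359). The *GAP1* ORF on the other strand was at 169 ± 22.4 CPM of ORF counts in the *TOS8* strain and 185 ± 15.5 in the *SFL1* strain, with a log2 difference of *TOS8* from the other 4 strains of 0.02 (SE 0.08, adjusted p = 0.858). SUT1873.1, which overlaps the end of the hexose transporter gene *HXT16* by 4 nucleotides on the same strand, averaged 37.7 CPM in the *TOS8* strain and 54.9 to 89.7 in the others (log2 difference -1.02, SE 0.28, edgeR adjusted p = 0.00573), a call that was kept in 21 of 28 settings. The *HXT16* ORF differed by -0.89 (edgeR adjusted p = 4.03e-10). All windows of 51 bases in SUT1873.1 are repeated in the reference.

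The *SFL1* strain differed in 39 members (6.08%, background percent called 4.14), 17 higher (background 2.4%) and 22 lower (background 1.75%), and its libraries did not overlap the others for 3 higher and 4 lower members (background 0.799%). The largest fall among the latter was SUT1631.1, which runs across *RIE1* (*YGR250C*), an RNA-binding protein gene, on the opposite strand for 947 of its 1001 nucleotides. It was at 173, 149, 119, and 82.1 CPM in the *SFL1* libraries. It was at 504, 498, 480.5, and 468 CPM in the *TOS8*, 430.3, 375, 336, and 357 in the *HEK2*, 398, 431, 182, and 362 in the *SAN1*, and 494, 511, 520.3, and 503 in the *ROF1* libraries. The highest *SFL1* library, at 173 CPM, lay just below the lowest other library, *SAN1* replicate 3 at 182. The log2 difference was -1.74 (SE 0.16, edgeR adjusted p = 1.21e-13). SUT1529.1, on the strand of *RIE1* and 313 nucleotides downstream of it, fell as well, with 63.9 ± 14.4 CPM in the *SFL1* strain and 109 to 178 in the others (log2 difference -1.14, SE 0.20, edgeR adjusted p = 3.38e-05). For the *RIE1* ORF the difference was -0.46 (adjusted p = 0.0194), but this ORF was not lowest in the *SFL1* strain. It was at 302 ± 44.2 CPM of ORF counts in *SFL1* and 239 ± 12.0 in *HEK2*. In *SAN1* it was at 368 ± 104, in *ROF1* at 378 ± 99.4, and in *TOS8* at 895 ± 147. The *HEK2* strain differed from the other 4 by -0.88 for this ORF (edgeR adjusted p = 0.000107).

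The named members that were higher in the *SFL1* strain had smaller differences or few counts. SUT2433.1 is an 89-nucleotide interval on the minus strand that begins 159 nucleotides before *SFL1* and runs away from it. Its nearest ORF is another, which lies upstream of it on its own strand and was not among the tested ORFs. It was at 41.8, 29.7, 27.4, and 17.6 CPM in the *SFL1* libraries (7, 4, 9, and 3 counts). In the other strains its mean was 3.93 to 7.38 CPM and the highest library was at 16.01. The log2 difference was 2.28 (SE 0.49, edgeR adjusted p = 0.000804), and the adjusted p was 0.0109 without *SFL1* replicate 1. Reads of the plasmid and the chromosomal copy cannot be told apart, and whether the plasmid insert reaches this feature was not tested. SUT2560.2 differed by 1.11 (SE 0.23, edgeR adjusted p = 0.00039). SUT2267.1, convergent with *EAR1*, an adaptor of the ubiquitin ligase Rsp5, was at 307 ± 28.5 CPM against 171 to 251 (log2 difference 0.64, SE 0.13, edgeR adjusted p = 0.000507). The *EAR1* ORF differed by -0.28 (edgeR adjusted p = 0.000464). No other member lay within 2 kb of a plasmid gene.

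The *HEK2* strain differed in 52 members (8.11%, background percent called 6.96), 26 higher (background 4.24%) and 26 lower (background 2.72%), and the libraries did not overlap for 2 higher and 2 lower members, called or not (background 0.849%). SUT2075.1, a 2025-nucleotide feature opposite the ferric reductase gene *FRE6*, was named as higher, with 275, 279.5, 352, and 226 CPM in the *HEK2* libraries. Its means were 88.99 ± 9.76 CPM in the *TOS8* strain, 149 ± 45.7 in *SFL1*, 97.6 ± 41.4 in *SAN1*, and 136 ± 25.7 in *ROF1*, and the 4 *HEK2* libraries lay above the other 16. The log2 difference was 1.21 (SE 0.16, edgeR adjusted p = 2.17e-08). SUT1080.1, which ends 27 nucleotides upstream of the zinc cluster transcription factor gene *RDS1*, was named as lower beside SUT1554.1, with 27.1, 49.3, 15.996, and 48.8 CPM in the *HEK2* libraries and means of 81.8 to 103 in the others (log2 difference -1.19, SE 0.25, edgeR adjusted p = 0.000375). The *RDS1* ORF differed by 0.12 (edgeR adjusted p = 0.175). The part of reads from the untranslated start of *RDS1* in the counts of SUT1080.1 was not tested.

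The *SAN1* strain differed in 10 members (1.56%, background percent called 0.873, ORFs 3.29), 9 higher and 1 lower (background 0.699% and 0.175%). None of the 641 members was free of overlap between the *SAN1* libraries and the other 16 (background 0.175%). SUT2486.1 differed by 1.13 (edgeR adjusted p = 2.68e-14) in the *SAN1* strain and by 1.15 (edgeR adjusted p = 6.18e-15) in the *ROF1* strain. The *ROF1* strain differed in 21 members (3.28%, background percent called 1.95, ORFs 8.85), 19 higher and 2 lower (background 1.3% and 0.649%), 2 of them without overlap (background 0.275%). These were SUT1576.1 and SUT2339.1. SUT2339.1, inside *BDP1*, a subunit of the RNA polymerase III factor TFIIIB, on the other strand, was at 916, 797, 800.5, and 741 CPM in the *ROF1* libraries and had means of 436 to 634 in the other strains (log2 difference 0.60, SE 0.11, edgeR adjusted p = 7.47e-05).

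Between the *SFL1* and *HEK2* strains 4 members differed (0.624%, background percent called 0.524, ORFs 4.31), 2 higher and 2 lower in *SFL1* (background 0.225% and 0.299%). Called or not, the libraries did not overlap for 15 higher and 14 lower members (background 6.11%). SUT1631.1 was lower in *SFL1* by -1.56 (SE 0.18, edgeR adjusted p = 7.31e-09). SUT1450.1, on the same strand and 410 nucleotides upstream of the amino acid permease gene *AGP3*, was higher, with 705, 676, 763, and 634 CPM in the *SFL1* libraries against 322, 204, 384, and 283 in the *HEK2* libraries (log2 difference 1.32, SE 0.15, edgeR adjusted p = 4.99e-09). The libraries of the strains did not overlap for either member. The *AGP3* ORF differed by -0.38 (SE 0.11, edgeR adjusted p = 0.0239) and was not called. Between *SAN1* and *ROF1* 3 members differed (0.468%, background percent called 0.574, ORFs 0.295), all higher in *SAN1* (background 0.424%), and 77 (12%) had an unadjusted p below 0.05, against 9.83% of all non-ORF features. Called or not, the libraries did not overlap for 12 higher and 10 lower members (background 4.12%). SUT2186.1, 1551 nucleotides upstream of the ribosome biogenesis gene *ERB1*, was at 367, 242, 279, and 457 CPM in the *SAN1* libraries and 137, 195, 152, and 238 in the *ROF1* libraries (log2 difference 0.91, SE 0.21, edgeR adjusted p = 0.00868), and this call was kept in 17 of 30 settings. The others were SUT1135.2, opposite the cell wall protein gene *SED1* (630.4 ± 379.6 against 272 ± 99.1 CPM), and SUT1655.1, opposite *COX6*, a subunit of cytochrome c oxidase (168 ± 82.8 against 59.0 ± 22.1 CPM), with libraries that overlapped between the strains. Their densities were 0.0664% and 0.101% of those of their ORFs, and the part of ORF reads assigned to the wrong strand in these counts was not tested.

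Changes of antisense members were compared with those of the ORF on the opposite strand. Of the 398 antisense members 381 had a tested ORF. Between the *SFL1* and *HEK2* strains and the *SAN1* and *ROF1* strains, 45 of these members were called, and for 28 of them the ORF was not called, with 23 of the 28 ORFs differing by less than 0.2 on the log2 scale. Among all pairs with an uncalled ORF, 92.2% of the ORFs differed by less than 0.2. In the 17 pairs with both called, 8 had the same direction and 9 the opposite direction. For *TOS8* against the other strains 21 pairs had both called (11 in the same and 10 in the opposite direction), for *SFL1* 7 pairs (2 and 5), and for *HEK2* 19 pairs (7 and 12). Separate intervals opposite the same ORF count here as separate pairs. Between the pairs of strains, *HPF1*, *DAN1*, and *PAH1* each entered the opposite pairs through separate intervals, as *PRT1* entered those of the same direction. For *SFL1*, *HPF1* and *DAN1* did so among the opposite pairs. Directions were not counted per ORF. The ORF was called for 37.8% of the members called between the pairs of strains, against 29.4% over all 381, and for 63.6% against 59.8% for *TOS8*. For *SFL1* these shares were 23.3% against 17.6%, and for *HEK2* 50% against 29.7%. Whether the shares differ was not tested. Over the 381 pairs the correlation of the 2 log2 differences was -0.217 (Pearson's r). It describes features that share libraries and is given with no test. It was 0.00200 without the 5 members opposite *HPF1* and *DAN1*, a setting chosen after seeing the data. For downstream members, on the same strand as the ORF, r was 0.656 (n = 41), and for divergent members it was -0.103 (n = 48). The downstream pairs include SUT1709.1 and *CSS1*, with fitted log2 differences of 1.80 and 1.66, and r was not computed without them. Repeated windows cover 75.4% of SUT1709.1.

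**Figure D5:**
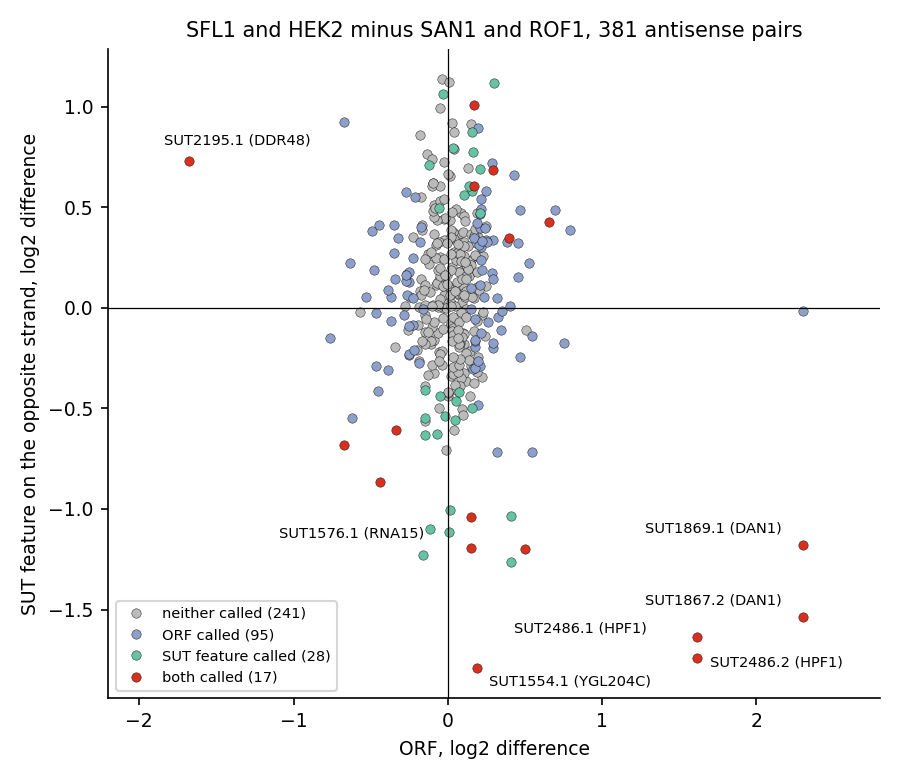
Log2 difference of the *SFL1* and *HEK2* strains from the *SAN1* and *ROF1* strains for 381 antisense SUT features (vertical) and the ORF on the opposite strand (horizontal), from mean log2 CPM with a prior count of 2, coloured by which of the pair passed the threshold. In 28 pairs the SUT feature and not the ORF was called, as at SUT1576.1 and *RNA15*, and the members opposite *HPF1* and *DAN1* lie at the lower right.

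A list of 29 ORFs held 9 of the nuclear exosome and TRAMP, 4 of termination, 6 of cytoplasmic decay, and 10 of chromatin factors that restrict noncoding transcription. In the *TOS8* strain 9 were higher and 6 lower (background percent called 48.3 over all ORFs). Of these, 4 higher and 0 lower were of the exosome and TRAMP, 0 and 2 of termination, 1 and 1 of cytoplasmic decay, and 4 and 3 of chromatin. Over the list the *SFL1* strain had 2 and 1 (16.2), and the *HEK2* strain 2 and 4 (24.5), of which chromatin factors were 1 and 1 in either strain. Between the pairs of strains 5 were higher in *SFL1* and *HEK2* and 3 were lower (23.6). In the *TOS8* strain *LRP1*, a nuclear exosome cofactor, was higher by 0.69 (edgeR adjusted p = 9.63e-07), and *SEN1*, the helicase that works with Nrd1 and Nab3, was lower by -0.65 (edgeR adjusted p = 3.97e-07). *XRN1*, the cytoplasmic exonuclease, differed by -0.43 (edgeR adjusted p = 1.75e-07) in the *TOS8* strain and by 0.31 (edgeR adjusted p = 1.69e-05) in the *HEK2* strain. Their part in the levels of the members was not tested.

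Near *FLO11*, the flocculin gene that shapes fluffy colonies, the one member within 2 kb was SUT1734.1 on chromosome IX (386533 to 387765, minus strand), 1807 nucleotides away. It averaged 262 ± 41.4 CPM in the *TOS8* strain, 259 ± 52.6 in *SFL1*, 242 ± 38.0 in *HEK2*, 247 ± 55.3 in *SAN1*, and 304 ± 44.7 in *ROF1*. The strains overlapped, and the test for any difference gave an adjusted p of 0.562. The *FLO11* ORF (*YIR019C*) had strain means of 814 to 11912 CPM of ORF counts. Of the members with the highest densities, SUT1237.1, with means of 997 to 1158 CPM, and SUT2250.1, with means of 299.6 to 461, were not called either (adjusted p = 0.624 and 0.150).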

How the data were processed

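Raw counts were deposited by the authors for 12131 features in 20 libraries. They prepared stranded mRNA libraries from 5 µg of total RNA, aligned paired reads of 51 bases with Bowtie2 (version 2.1.0) to the S288c genome (R64) extended with noncoding features and F45 genes, and counted pairs on the strand of each feature with featureCounts (version 1.4.0) of Subread, with no filter on mapping quality. Pairs that met more than 1 feature were not assigned, which lowers the counts of overlapping features (88 members overlap another feature on their strand). Bowtie2 places a read with several equal matches at 1 of them: 91 members consist by more than 50% of windows of 51 bases that occur more than once in the reference, and 16 of these were called.

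Tests used edgeR (version 4.0.16, limma 3.58.1, R 4.3.3): the quasi-likelihood test over the 4007 features outside ORFs that reached the minimum of 1 CPM, TMM factors within that set, a mean per strain, and Benjamini-Hochberg adjustment over all 4007. ORFs (5772 tested) were fitted separately, so their CPM have another denominator. SE is the log2 fold change divided by the square root of F. Normalized CPM are given per library, and log2 CPM used a prior count of 2. The members and lists were chosen with earlier results of these data known. Members were named by a rule: for each strain the 3 largest rises and falls among calls without overlap of libraries, the largest for each pair, the 5 highest and 3 lowest by CPM per kb, and those within 2 kb of the plasmid genes or *FLO11*. Steps were tested on simulated data. Sequences and motifs were read from RefSeq R64, in which 618 members' nearest ORF was found. Alternatives were DESeq2 (version 1.42.0), other scaling, filters, thresholds, a replicate block, and leaving out libraries. The features SUT719 and SUT457 were not analysed here.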

Additional observations from a re-analysis of the deposited data

Results flagged for a closer look

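Among 155 groups of 4 libraries examined for 30 members and for the shares of counts, 12 held a library far from the other 3, and chance gives about 1 in 20 groups. For SUT1554.1 *SAN1* replicate 2 stood high at 2241 CPM and *ROF1* replicate 1 low at 1612 CPM, and for SUT1576.1 *SAN1* replicate 2 stood high at 1643 CPM. For SUT2317.1 the lowest *ROF1* library was at 129.9 CPM, and for SUT2560.2 the lowest *TOS8* library was at 25.9 CPM. For SUT1912.1 the highest *SAN1* library was at 53.2 CPM. For SUT1237.1 the highest *SFL1* library was at 1279 CPM and the lowest *ROF1* library at 939.9 CPM. The rest were values of 1 count or less in features near the detection limit: SUT1100.1 at 3.04 CPM in the highest *SFL1* library, and SUT1285.1 at 3.04 CPM in the highest *SFL1* library, 7.57 CPM in the highest *SAN1* library, and 0 CPM in the lowest *ROF1* library.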

How the results depend on the processing

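The numbers of members called stayed within 1.5 times of those reported, except as follows. With at least 10 counts in every library (117 members tested) 54 differed among strains, 30 in the *TOS8* strain, and 0 between *SAN1* and *ROF1*. At a false discovery rate of 0.05 there were 87 for *TOS8*, 81 for *HEK2*, 39 for *ROF1*, and 12 for *SFL1* against *HEK2*, where no filter gave 9. DESeq2 gave 1 for *SAN1* against *ROF1*. Leaving out each library in turn gave 89 to 104 members differing among strains, 33 to 59 for *TOS8* (33 without *TOS8* replicate 2), 26 to 40 for *SFL1*, 37 to 55 for *HEK2*, 8 to 12 for *SAN1*, 12 to 26 for *ROF1* (12 without *ROF1* replicate 2), and 56 to 67 between the pairs of strains. It gave 2 to 5 for *SFL1* against *HEK2* (2 without *SFL1* replicate 2, 3, or 4, or *HEK2* replicate 1 or 2) and 0 to 3 for *SAN1* against *ROF1* (0 without *SAN1* replicate 1 or *ROF1* replicate 2), and a correlation of antisense pairs of -0.239 to -0.195. That correlation was 0.00200 without the pairs at *HPF1* and *DAN1*. It was -0.407 over the 97 members with a median of at least 20 counts, where the pairs at *HPF1* and *DAN1* were not removed. These settings, and leaving out the 4 shallowest libraries (*TOS8* replicate 1, *HEK2* replicate 3, *SAN1* replicate 3, and *ROF1* replicate 4), which gave 92 members differing among strains and 60 between the pairs, were chosen after seeing the data.

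The split of higher and lower members moved for *TOS8* (23 and 28 with TMM over all features, 17 and 23 with DESeq2), *SFL1* (10 and 22 with DESeq2), *HEK2* (16 and 27 with DESeq2), and the pairs of strains (15 and 45 with DESeq2). TMM over all features set the median of all features to 0.10 between *SAN1* and *ROF1*, from 0.02. Of the named members SUT1873.1, SUT2433.1, and SUT2186.1 lost their call in some settings (largest adjusted p 0.0382, 0.0109, and 0.146). For library numbers shared across strains no source gives a pairing. Correlations of same-numbered libraries were -0.0761 to 0.115 over members and -0.370 to 0.441 over ORFs, where those of *SFL1* with *ROF1* were all at or above 0.159. With the replicate block in the ORF fit, chosen after seeing the data, the antisense pairs with both called numbered 21 for *TOS8*, 9 for *SFL1*, 19 for *HEK2*, and 18 between the pairs of strains, and *RIE1* was called in *SFL1* (adjusted p = 0.00256). With the replicate block in the fit of non-ORF features 101 members differed among strains, 55 for *TOS8*, 39 for *SFL1*, 48 for *HEK2*, 11 for *SAN1*, 23 for *ROF1*, 6 and 2 within the pairs, and 68 between them, and SUT2186.1 was not called (adjusted p = 0.0109). The causes were not tested. Of the members with a median of up to 5 counts 3.59% were called, and of those above 100 counts 57.9%.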
